A study of Mus musculus with 18 samples.

Results

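MHC class II presentation genes were followed in mouse iLS cells that carried a NUTM1 fusion and in their controls. The 10 genes were taken by name from a table of 32285 genes: the classical class II chains H2-Aa, H2-Ab1 and H2-Eb1, the H2-M chains H2-DMa, H2-DMb1 and H2-DMb2, the H2-O chains H2-Oa and H2-Ob, the invariant chain Cd74, and the transactivator Ciita. The cells were CD45.2-positive bone marrow cells of C57BL/6 mice, isolated by cell sorting before poly(A) RNA was sequenced. BN1 cells carried BRD9-NUTM1 and AFFN1 cells carried AFF1-NUTM1. Control cells carried CD45.2 alone in the genotype label, and the day 6 controls are named mock in the sample descriptions. There were 6 groups of 3 libraries, one for each kind of cell at each of day 14 and day 6. The labels give neither the meaning of iLS nor the promoter behind the fusions, and whether the 3 libraries of a group are from separate cultures or mice is not stated. A p-value here is thus about the spread among the libraries at hand, which may be technical. Descriptions of day 14 and day 6 libraries are named by unlike schemes, and a day effect and an effect of separate experiments cannot be told apart.

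Class II molecules carry peptides from the endosome to the cell surface, where helper T cells read them. An alpha and a beta chain assemble on the invariant chain Cd74, which blocks the groove and steers the complex to the endosome. There H2-M helps to exchange the remnant of Cd74 for a peptide, and H2-O, found mainly in B cells, restrains H2-M. Ciita is the co-activator that turns most of these genes on. It binds no DNA itself but joins the RFX complex and NF-Y, which sit on the X and Y boxes ahead of class II genes. Early B-lineage precursors in mice carry little surface class II, and it increases as B cells mature.

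The 4 promoters below are shown because H2-Oa and H2-Ob, the best expressed of the chains, have the same pair of boxes as H2-Aa and H2-Eb1, which were almost silent in these cells. Each line gives the 150 bases before the RefSeq start site on the gene's own strand (GRCm38.p6), and capitals mark GCAAC, the core of the X box, and ATTGG, the Y box.
H2-Oa: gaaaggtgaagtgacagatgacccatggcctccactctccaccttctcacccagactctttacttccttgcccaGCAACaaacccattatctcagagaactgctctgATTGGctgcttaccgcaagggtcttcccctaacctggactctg
H2-Ob: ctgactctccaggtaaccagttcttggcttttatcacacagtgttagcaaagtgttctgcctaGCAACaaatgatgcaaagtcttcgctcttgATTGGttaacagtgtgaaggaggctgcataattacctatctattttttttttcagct
H2-Aa: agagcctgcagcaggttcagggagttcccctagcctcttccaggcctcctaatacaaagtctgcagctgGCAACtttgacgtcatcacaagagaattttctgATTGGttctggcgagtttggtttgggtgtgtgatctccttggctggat
H2-Eb1: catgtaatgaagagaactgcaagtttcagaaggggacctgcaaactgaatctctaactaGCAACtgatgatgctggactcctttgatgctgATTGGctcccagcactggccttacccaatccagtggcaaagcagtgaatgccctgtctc
The windows lie at chr17:34092229-34092378 (plus strand), chr17:34238755-34238904 (plus strand), chr17:34287824-34287973 (minus strand) and chr17:34305717-34305866 (plus strand), in the order of the lines. The first bases of GCAAC and ATTGG were 33 bases apart in H2-Oa, 30 in H2-Ob, 33 in H2-Aa and 32 in H2-Eb1.

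Of 8 RefSeq windows, which belong to 7 of the 10 genes, 4 held GCAAC followed by ATTGG within 40 bases, first base to first base. Among all 32851 windows of 250 bases, searched on both strands, 29.9% held GCAAC, 33.8% held ATTGG and 1.35% held the ordered pair. The promoters of the H2-M beta chains held ATTGG without GCAAC on the gene's strand, and neither was found in the 150 bases before either start site of H2-DMa. Only exact letters were searched. Ahead of ATTGG, H2-DMb1 has gtaactgatgatgct and H2-DMb2 ttaaccgatgatgct, close to GCAACtgatgatgct of H2-Eb1, so the lack of GCAAC does not show the lack of an X box. The motifs and the distance were chosen with these sequences in view, and a match of letters is a description, not a shown binding site. No window was used for H2-Ab1, Cd74 or Ciita.
H2-DMb1: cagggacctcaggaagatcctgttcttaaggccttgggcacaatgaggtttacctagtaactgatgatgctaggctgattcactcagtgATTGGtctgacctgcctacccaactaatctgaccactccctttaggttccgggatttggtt
H2-DMb2: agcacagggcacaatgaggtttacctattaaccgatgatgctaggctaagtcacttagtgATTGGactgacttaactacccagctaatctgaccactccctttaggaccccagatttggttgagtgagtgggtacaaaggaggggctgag
The H2-M beta chain windows, at chr17:34153041-34153190 and chr17:34145099-34145248 (both plus strand), are shown because the 2 genes are near copies. Their transcripts were 95.5% identical over 1058 aligned bases, so reads may have been split between them by the counting, and H2-DMb2 held between 68% and 96.6% of the reads of the pair in a library. That share was 91.5% or higher in all day 14 libraries and 88.1% or lower in all day 6 libraries.

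All 8 chain genes lie in the class II region of mouse chromosome 17 (mm10, GENCODE M21), in the order H2-Oa (34092340 to 34095234), H2-DMa (34119541 to 34139101), H2-DMb2 (34143307 to 34151555), H2-DMb1 (34153072 to 34160230), H2-Ob (34238903 to 34254414), H2-Ab1 (34257689 to 34269419), H2-Aa (34282744 to 34287823, minus strand) and H2-Eb1 (34305867 to 34316674). Cd74 lies on chromosome 18 (60803848 to 60812652) and Ciita on chromosome 16 (10480059 to 10528418). H2-DMa overlaps Brd2 on the other strand, which had 332 to 526 counts per 1000000 counts (CPM) in a library, and Ciita overlaps Dexi on the other strand, at 5.65 to 18.7 CPM. The library kit keeps the strand of the RNA, but the strand setting of the counting is not given in the sources used here, so reads of such partners may not have been told apart. CPM values are scaled by TMM over the 18 libraries, whose total expected counts were between 14182500 and 18383400. Some libraries stood apart from their group, in interferon response transcripts (AFFN1 1 and control 1 of day 14) or in immediate early transcripts (BN1 3 and control 3 of day 6), and where a member's call changes without such a pair of libraries, the value is given beside it.

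The class II program was present in part: the accessory genes were expressed and the classical chains were almost absent. H2-Ob and H2-Oa, which form H2-O, and Cd74 held the first 3 places in every group when levels were divided by transcript length (CPM per 1000 bases). On day 14 Cd74 led, at 56.9 ± 27.8 in BN1, 153 ± 97.3 in AFFN1 and 264 ± 191 in control cells (SD, n = 3 each). H2-Oa followed on day 14 at 42.0 ± 7.70, 46.6 ± 28.3 and 28.7 ± 15.2 CPM per 1000 bases in BN1, AFFN1 and control cells, and H2-Ob stood beside it at 40.6 ± 6.92, 37.2 ± 23.5 and 28.1 ± 13.7. The 3 genes overlapped between libraries in BN1. In AFFN1 H2-Oa overlapped both others, while the lowest Cd74 value (63.9) was just above the highest of H2-Ob (63.5). In control cells each library's Cd74 was above every value of H2-Oa and H2-Ob, whose own ranges overlapped.

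On day 6 H2-Ob led in both fusion lines, at 66.6 ± 14.4 in BN1 and 57.4 ± 8.85 CPM per 1000 bases in AFFN1 cells, and stood at 33.3 ± 18.2 in control cells. Cd74 was at 3.02 ± 1.33 in BN1, 23.1 ± 28.3 in AFFN1 and 37.5 ± 36.8 CPM per 1000 bases in control cells. The H2-M chains H2-DMb2 and H2-DMa took the next 2 places in every group, between 1.51 and 13.8 CPM per 1000 bases on average. H2-DMb1 averaged 0.432 to 0.963 and the classical chains and Ciita at most 1.13 CPM per 1000 bases in any group.

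**Figure D1:**
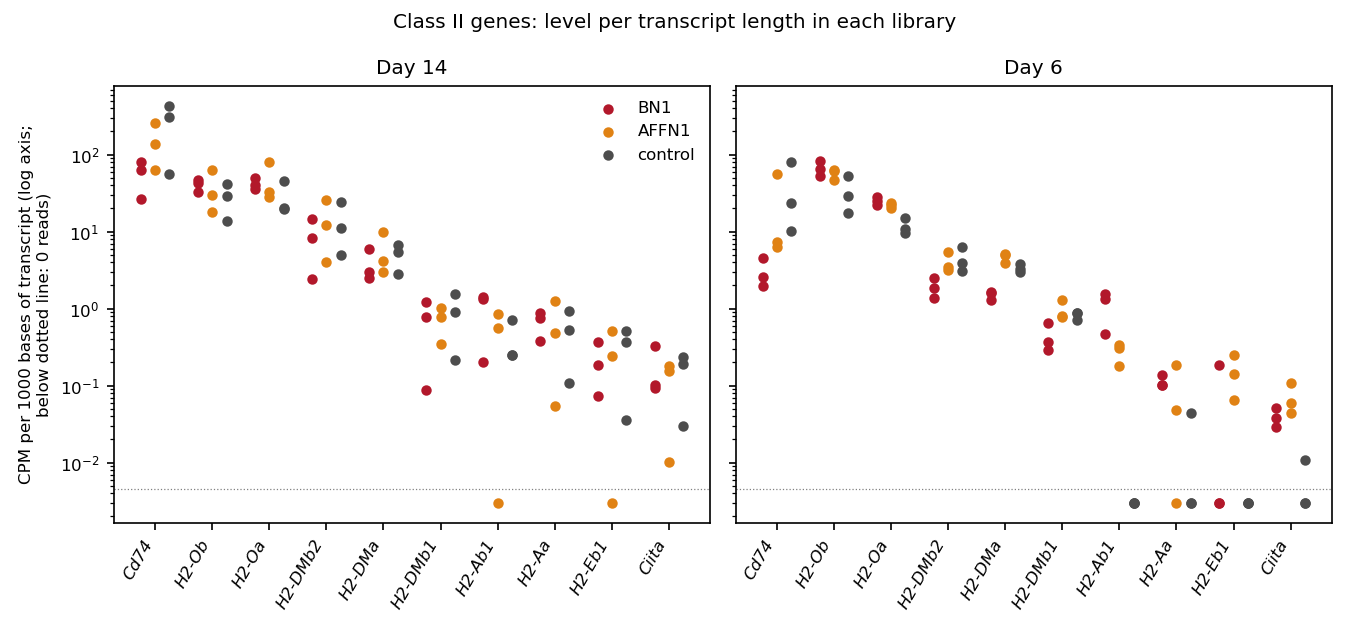
Level of each class II gene in CPM per 1000 bases of transcript (log axis) in BN1, AFFN1 and control libraries, on day 14 (left) and day 6 (right), 1 point per library. Cd74, H2-Ob and H2-Oa form the upper group, H2-DMb2 and H2-DMa the middle one, and H2-Ab1, H2-Aa, H2-Eb1 and Ciita the lower one, with points under the dotted line for libraries with 0 reads.

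In reads, the classical chains and Ciita rest on few observations. Over all 18 libraries H2-Ab1 had 200 reads, Ciita 163, H2-Aa 110 and H2-Eb1 81, against 36713 for Cd74 and 36509 for H2-Ob. No library had more than 33 reads of H2-Ab1, 32 of Ciita, 23 of H2-Aa or 14 of H2-Eb1. H2-Eb1 had 0 reads in 6 libraries, H2-Ab1 in 4, H2-Aa in 3 and Ciita in 2. In bulk RNA, fewer cells with a transcript and less of it per cell cannot be told apart, so these traces may come from few cells or from all.

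BN1 cells were compared with control cells on day 6 to ask which transcripts the BRD9-NUTM1 fusion goes with. Of the accessory chains, H2-Oa of H2-O rose, and H2-DMa and H2-DMb2 of H2-M fell, while H2-Ob and H2-DMb1 were not called. The classical beta chain H2-Ab1 was detected where control cells had none. In edgeR's quasi-likelihood test, 4 of the 7 members with enough reads were called, 2 higher and 2 lower, where 17.4% of the 12068 tested genes were called (8.83% higher and 8.53% lower). H2-Ab1 had enough reads for the test only through the BN1 libraries, where it was high. The filter thus favoured its call and the count that includes it. It was also called with no filter on low counts. The median log2 fold change of the 7 was -0.93, also with H2-Ab1 set at 3 reads in control, and that of all tested genes -0.02. H2-Aa, H2-Eb1 and Ciita had too few reads to be tested on day 6.

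H2-Oa, the H2-O alpha chain, had 30.9, 24.0 and 27.1 CPM in BN1 libraries, against 11.9, 10.3 and 16.2 CPM in control libraries. The lowest BN1 library was above the highest control library. H2-Oa was 2.11-fold higher in BN1 (log2 fold change 1.08, SE 0.16, edgeR adjusted p = 0.00137). Its partner H2-Ob, the H2-O beta chain, had 218, 141 and 174 CPM in BN1 libraries, against 77.9, 46.8 and 142 CPM in control libraries. The groups met at control library 3, and H2-Ob was not called (log2 fold change 0.99, SE 0.35, edgeR adjusted p = 0.0922). Without that library, one of 2 on day 6 with high immediate early transcripts, its log2 fold change was 1.52 (edgeR adjusted p = 0.0052).

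The H2-M alpha chain H2-DMa had 2.70, 2.64 and 2.16 CPM in BN1 libraries, against 4.93, 6.30 and 5.46 CPM in control libraries. The groups were well apart, and H2-DMa was 2.24-fold lower in BN1 (log2 fold change -1.16, SE 0.19, edgeR adjusted p = 0.00243). The beta chain H2-DMb2 had 3.57, 2.64 and 1.93 CPM in BN1 libraries, against 5.54, 9.06 and 4.40 CPM in control libraries. Here too every BN1 library was below every control library, and H2-DMb2 was 2.34-fold lower (log2 fold change -1.22, SE 0.34, edgeR adjusted p = 0.032). H2-DMb1 had 0.510, 0.402 and 0.908 CPM in BN1 libraries and 1.23, 1.22 and 1.00 CPM in control libraries, a log2 fold change of -0.93 that was not called (SE 0.39, edgeR adjusted p = 0.128).

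Cd74, the invariant chain, had 3.62, 6.37 and 2.78 CPM in BN1 libraries, against 32.7, 112 and 14.2 CPM in control libraries. BN1 libraries were all below control libraries, but control libraries differed among themselves by up to 7.89-fold. The log2 fold change of -3.65 had an SE of 1.19 and was not called (edgeR adjusted p = 0.0782), whereas DESeq2 called it (adjusted p = 0.00531, in a range of 0.00531 to 0.391 over the alternatives).

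H2-Ab1, the classical beta chain of I-A, had 32, 33 and 10 reads in BN1 libraries and 0 in each control library. With control set at 3 reads, the limit that a count of 0 over the group allows, H2-Ab1 was 24.4-fold higher in BN1 (edgeR adjusted p = 0.00201). That fold takes the BN1 count as fixed, so it is not a full lower bound. Its level in BN1 stayed low, at 0.567 to 1.89 CPM. Ciita had 13 reads over the BN1 libraries and 1 over the control libraries, a ratio of 12.7 with a counting interval of 1.91 to 540 (95%, counting error only). H2-Aa, the alpha chain that pairs with H2-Ab1, had 7 reads in BN1 and 1 in control, and H2-Eb1, the beta chain of I-E, had 6 reads in a single BN1 library and 0 in control.

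The calls of H2-Oa, H2-DMa and H2-Ab1 held without any single library, and that of H2-DMb2 did not hold without BN1 library 2 (edgeR adjusted p = 0.0816) or 3 (0.0967) or without control library 1 (0.0675) or 2 (0.115). When all 18 libraries shared one estimate of the spread, H2-Oa (edgeR adjusted p = 0.0971), H2-DMa (0.117) and H2-DMb2 (0.371) did not pass, at nearly the same log2 fold changes (1.09, -1.15 and -1.21).

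**Figure D2:**
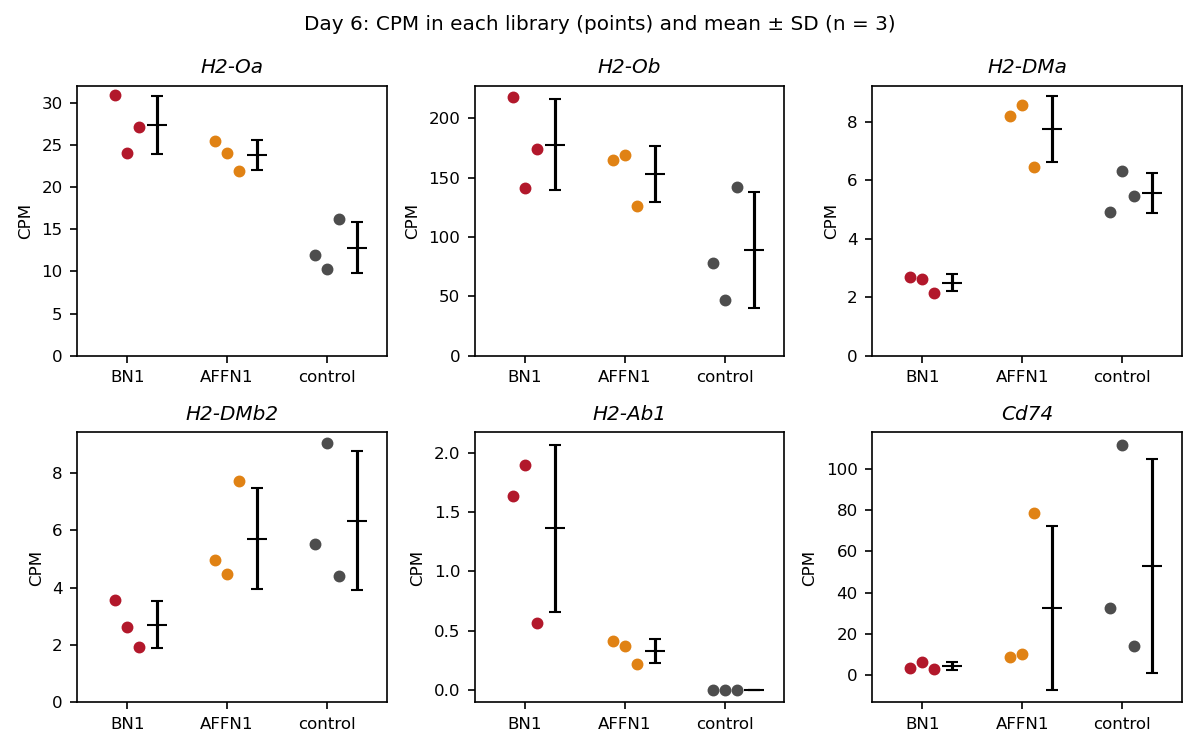
CPM on day 6 of H2-Oa, H2-Ob, H2-DMa, H2-DMb2, H2-Ab1 and Cd74 in BN1, AFFN1 and control libraries (points) with the group mean ± SD (n = 3). H2-Oa is higher in both fusion lines than in control, every BN1 library is below every AFFN1 and control library in H2-DMa and H2-DMb2, and H2-Ab1 has 0 reads in control.

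In AFFN1 cells H2-Oa and H2-Ab1 were also higher than in control cells, and no H2-M chain was called. Against control cells on day 6, 2 of 7 tested members were called, both higher, where 12.7% of 12068 genes were called in either direction and 7.79% higher. The median log2 fold change of the 7 was 0.47, and that of all genes -0.02. The 2 fusions were set against the same control libraries, so the values of one comparison are not independent of the other. H2-Oa had 25.5, 24.0 and 21.9 CPM in AFFN1 libraries, all above the control libraries, and was 1.84-fold higher (log2 fold change 0.88, SE 0.16, edgeR adjusted p = 0.00613). H2-Ab1 had 7, 7 and 4 reads in AFFN1 libraries and was 5.91-fold higher than in control cells set at 3 reads (edgeR adjusted p = 0.0292). It was tested because its BN1 reads passed the filter, and it was also called with no filter.

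The H2-M chains did not pass the test in AFFN1 cells. H2-DMa had 8.20, 8.58 and 6.46 CPM in AFFN1 libraries, each above the control libraries, with a log2 fold change of 0.47 (SE 0.18, edgeR adjusted p = 0.117). H2-DMb2, at 4.95, 4.47 and 7.72 CPM in AFFN1 libraries, overlapped control (log2 fold change -0.15, SE 0.32), as did H2-DMb1, at 1.12, 1.84 and 1.10 CPM in AFFN1 libraries (0.23, SE 0.36). H2-Ob had 165, 169 and 126 CPM in AFFN1 libraries and a log2 fold change of 0.78 (SE 0.35, edgeR adjusted p = 0.191), and without control library 3 this was 1.30 and was called. Cd74 was at 8.79, 10.3 and 78.6 CPM in AFFN1 libraries, so that a single library reached into the control range. Ciita had 23 reads in AFFN1 and 1 in control, a ratio of 22.7 (counting interval 3.68 to 933), H2-Eb1 had 14 reads in AFFN1 and 0 in control, and H2-Aa had 5 and 1.

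The H2-Ab1 call in AFFN1 did not hold without AFFN1 library 1 (edgeR adjusted p = 0.0854) or 2 (0.0841) and without control library 1 (0.0649) or 2 (0.0553). With all 18 libraries in the fit neither H2-Oa (edgeR adjusted p = 0.219) nor H2-Ab1 (0.11) was called.

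Set directly against each other on day 6, the fusion lines differed in H2-DMa. BN1 had 3.11-fold less H2-DMa than AFFN1 (log2 fold change -1.64, SE 0.19, edgeR adjusted p = 0.000411), and this held without any single library. It was the 1 member of 7 called, where 11.2% of 12068 genes were called and 6.19% were called lower, so the count is near the share of all genes. H2-DMb2 (log2 fold change -1.07, SE 0.34, edgeR adjusted p = 0.0686), H2-DMb1 (-1.16, SE 0.39, 0.0836) and Cd74 (-2.94, SE 1.18, 0.173) were lower in each BN1 library than in each AFFN1 library and were not called. With the H2-M beta chains summed into one feature, which takes out the split of reads between them, the log2 fold change was -1.09 and was called. By reads, BN1 had 4.13 times the H2-Ab1 of AFFN1 (75 against 18, counting interval 2.45 to 7.35), with an edgeR adjusted p of 0.0537. Without BN1 library 3 it was called, with a log2 fold change of 2.38. Without library 3 of both BN1 and control, H2-Ab1 (2.37, edgeR adjusted p = 0.00732) and H2-DMb1 (-1.56, 0.0367) were called. H2-Aa had 7 reads in BN1 and 5 in AFFN1, H2-Eb1 6 and 14, and Ciita 13 and 23, with too few reads for a test. The H2-O chains were not called, at log2 fold changes of 0.19 (SE 0.16) for H2-Oa and 0.21 (SE 0.35) for H2-Ob.

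The ratio of H2-Oa to H2-DMa, both per transcript length, puts these differences together. It was 17.4, 13.9 and 19.2 in BN1 libraries on day 6, against 4.74, 4.26 and 5.17 in AFFN1 and 3.69, 2.50 and 4.53 in control libraries. On day 14 it was 11.9, 16.2 and 8.53 in BN1, 6.84, 11.0 and 8.03 in AFFN1 and 3.57, 7.26 and 6.87 in control libraries. The BN1 libraries lay above the control libraries on both days, without overlap, and above the AFFN1 libraries on day 6. With H2-Ob in place of H2-Oa, the ratio was 33.3 to 50.1 in BN1, 12.1 to 12.5 in AFFN1 and 4.62 to 16.2 in control libraries on day 6, and on day 14 the groups overlapped, at 7.83 to 17.2, 4.45 to 10.1 and 2.53 to 10.5. The ratio was formed after the 2 genes' values were seen and is a description with no test, and mRNA ratios are not protein ratios.

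**Figure D3:**
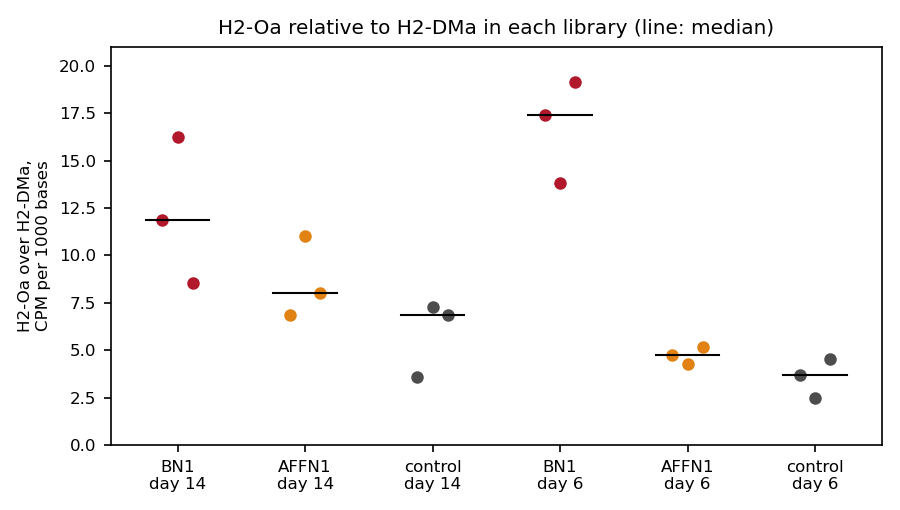
Ratio of H2-Oa to H2-DMa in CPM per 1000 bases for each library of BN1, AFFN1 and control cells on day 14 and day 6, with the group median as a line. BN1 libraries lie between 13.9 and 19.2 on day 6, where control libraries lie between 2.50 and 4.53.

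On day 14 no member was called when libraries were compared without regard to their replicate number. All 10 members were tested, and 3 of 11657 genes (0.0257%) were called between BN1 and control, 5 (0.0429%) between AFFN1 and control and 0 (0%) between BN1 and AFFN1. At an unadjusted p under 0.05 these comparisons had 1, 0 and 0 of the 10 members, and the last had 992 of all genes. That threshold is looser than the one behind the shares of called genes. DESeq2 called none of the members either, and 90 genes between BN1 and AFFN1. The sample descriptions give libraries of one replicate number the same code on day 14, and libraries of the same number deviated together, so the number was also used as a block. With the block 11.6% of 11657 genes were called between BN1 and control (6.62% lower), and with them 2 members, Cd74 and H2-DMb2, both lower.

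Cd74 on day 14 had 88.9, 37.5 and 114 CPM in BN1 libraries 1, 2 and 3, against 607, 77.9 and 433 CPM in the control libraries of the same numbers. The groups overlapped, since control library 2 was below 2 of the BN1 libraries, but within each number BN1 was lower, at 0.146, 0.481 and 0.264 of control. With the block Cd74 was 3.87-fold lower in BN1 (log2 fold change -1.95, SE 0.35, edgeR adjusted p = 0.0229), against a log2 fold change of -2.24 (SE 0.82, adjusted p = 0.191) without it. AFFN1 libraries had 362, 90.1 and 197 CPM, or 0.597, 1.16 and 0.454 of control, and were not called with the block (log2 fold change -0.61, SE 0.34, edgeR adjusted p = 0.535). Fewer calls were made in that comparison as a whole, at 0.558% of genes.

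H2-DMb2 on day 14 had 11.8, 3.43 and 20.8 CPM in BN1 libraries, against 15.8, 7.13 and 34.3 CPM in control libraries of the same numbers. It was lower in BN1 within each number and 1.66-fold lower with the block (log2 fold change -0.73, SE 0.16, edgeR adjusted p = 0.0214). In AFFN1 libraries H2-DMb2 had 17.2, 5.78 and 36.2 CPM, close to control within each number (log2 fold change with the block -0.04, SE 0.15). H2-DMa, at 4.92, 4.10 and 9.80 CPM in BN1, 6.79, 4.92 and 16.4 in AFFN1 and 9.07, 4.63 and 11.2 in control libraries, was lower in BN1 than in control within each number but was not called (log2 fold change with the block -0.45, SE 0.23, edgeR adjusted p = 0.213). H2-DMb1 was not called either, at log2 fold changes with the block of -0.42 (SE 0.47) in BN1 and -0.17 (SE 0.48) in AFFN1. Between BN1 and AFFN1 no member was called with the block, where 0.18% of genes were, and H2-DMb2 came nearest (log2 fold change -0.69, SE 0.16, edgeR adjusted p = 0.0837), with the 10 members between -1.34 (Cd74) and 1.18 (H2-Ab1).

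The H2-O chains on day 14 had the same sign as on day 6. H2-Oa had 38.4, 43.7 and 54.8 CPM in BN1, 30.5, 35.5 and 86.2 in AFFN1 and 21.2, 22.1 and 50.2 in control libraries, higher in each fusion library than in the control library of its number. With the block the log2 fold change was 0.66 in BN1 (SE 0.19, edgeR adjusted p = 0.055) and 0.65 in AFFN1 (SE 0.19, edgeR adjusted p = 0.212), and neither was called. H2-Ob had 87.8, 114 and 123 CPM in BN1, 48.7, 79.9 and 169 in AFFN1 and 37.0, 78.1 and 110 in control libraries (log2 fold change with the block 0.66, SE 0.24, edgeR adjusted p = 0.107 in BN1).

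Without the libraries numbered 3, the blocked fit also called H2-Oa (edgeR adjusted p = 0.0277) and H2-Ob (0.0435) higher in BN1 but neither of the lower members, with Cd74 and H2-DMb2 both at an adjusted p of 0.111, and without those numbered 2 H2-DMb2 was not called (0.13). The day 14 control and AFFN1 libraries numbered 1 stood apart in interferon response transcripts, whose summed level was 1038 CPM in AFFN1 1 and 1198 CPM in control 1, against 138 to 291 CPM in the other day 14 libraries. Without the libraries numbered 1 the blocked log2 fold change of Cd74 was -1.56 (edgeR adjusted p = 0.0171) and that of H2-DMb2 -0.89 (0.0169).

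**Figure D4:**
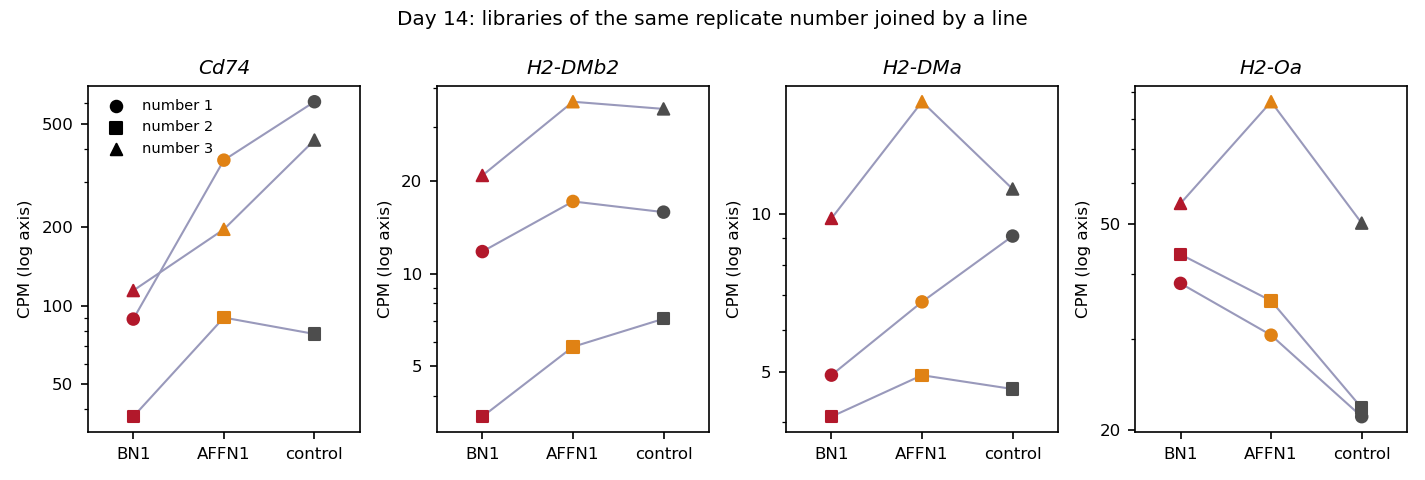
CPM on day 14 (log axes) of Cd74, H2-DMb2, H2-DMa and H2-Oa in BN1, AFFN1 and control libraries, with libraries of the same replicate number joined by a line. Within each number Cd74, H2-DMb2 and H2-DMa are lower in BN1 than in control and H2-Oa is higher, while the 3 numbers differ widely in level.

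The classical chains and Ciita overlapped between the groups on day 14. H2-Ab1 had 58 reads in BN1, 26 in AFFN1 and 23 in control cells, H2-Aa 37, 32 and 28, H2-Eb1 17, 20 and 24, and Ciita 51, 32 and 43. None was called with or without the block, and the ranges of single libraries overlapped in every case. The library control 1, which had the most Cd74 of all at 607 CPM, had 3 reads of Ciita, 2 of H2-Aa, 5 of H2-Ab1 and 1 of H2-Eb1, and AFFN1 1, with 362 CPM of Cd74, had 1, 1, 0 and 0. The library BN1 2, which had the most Ciita at 32 reads, had the least Cd74 of day 14 at 37.5 CPM.

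**Figure D5:**
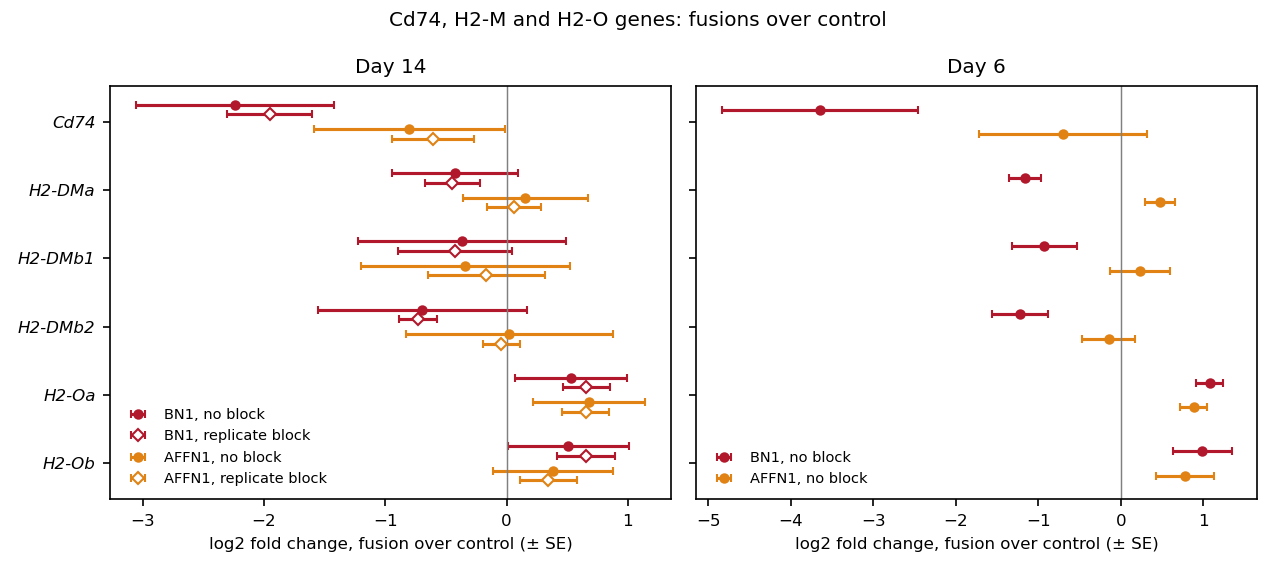
Log2 fold change (± SE) of BN1 and AFFN1 over control for Cd74, the H2-M chains and the H2-O chains on day 14 (left; filled symbols without and open symbols with the replicate block) and day 6 (right). BN1 lies at or below -0.37 for Cd74 and the H2-M chains and at or above 0.51 for the H2-O chains on both days, and the errors on day 14 are smaller with the block.

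On day 14 against day 6, 4 of 9 tested members were called in BN1, 3 in AFFN1 and 5 in control cells, all higher, where 48.3%, 47.8% and 43.9% of 12567 genes were called in either direction and 24.3%, 24.4% and 22.4% were called higher. So many genes differed between days that these counts say little about the members as a group. The median log2 fold change of the tested members was 1.32 in BN1, 0.74 in AFFN1 and 1.59 in control cells, beside -0.04, -0.02 and -0.03 for all genes. The control value was the same with day 6 H2-Ab1 set at 3 reads. Ciita had 43 reads in control cells on day 14 and 1 on day 6, a ratio of 47.8 (counting interval 8.14 to 1932; edgeR adjusted p = 0.00337). H2-Ab1 had 23 reads on day 14 and 0 on day 6, 8.53-fold higher with day 6 set at 3 reads (edgeR adjusted p = 0.0132). H2-Aa, at 28 reads against 1, had an edgeR adjusted p of 0.0106. No day 6 library had more than 4 reads of H2-Aa, so it passed the filter only through day 14 libraries. Ciita passed mainly through them, so the filter favoured calls higher on day 14 for both. With no filter both were still called in control cells, and H2-Aa was not called in BN1 (edgeR adjusted p = 0.0539). H2-Eb1, which was not tested, had 24 reads on day 14 and 0 on day 6 in control cells (8.90-fold higher with day 6 set at 3 reads). It had 17 and 6 in BN1 and 20 and 14 in AFFN1 cells. In the fusion lines, which had reads of these genes on day 6 already, Ciita and H2-Ab1 were not called between days, with H2-Ab1 at 58 reads on day 14 and 75 on day 6 in BN1.

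Cd74 was higher on day 14 in all 3 kinds of cell. It averaged 80.3 ± 39.2 CPM on day 14 and 4.26 ± 1.88 CPM on day 6 in BN1 (SD, n = 3; log2 fold change 4.24, SE 1.15, edgeR adjusted p = 0.00871), without overlap. The log2 fold change was 2.73 in AFFN1 (SE 1.03, edgeR adjusted p = 0.0432) and 2.82 in control cells (SE 1.03, edgeR adjusted p = 0.0407). H2-Oa rose 2.13-fold in AFFN1 and 2.42-fold in control cells, to 50.7 ± 30.8 against 23.8 ± 1.80 CPM and to 31.2 ± 16.5 against 12.8 ± 3.04 CPM. In BN1 H2-Oa was higher on day 14 without overlap but was not called (log2 fold change 0.74, SE 0.37, edgeR adjusted p = 0.111). It was called under 2 of 14 alternatives, the replicate block and the 6 BN1 libraries alone (edgeR adjusted p = 0.00211). H2-DMa rose 2.50-fold and H2-DMb2 4.41-fold in BN1, in which both were low on day 6, and H2-Aa rose in BN1 (37 reads on day 14 and 7 on day 6) and AFFN1 (32 and 5). H2-Ob was the 1 member at a negative log2 fold change in all 3, at -0.71 in BN1, -0.63 in AFFN1 and -0.25 in control cells, and was not called. With only the 6 libraries of BN1 in the fit it was called lower (-0.70, edgeR adjusted p = 0.0104), and the BN1 libraries of the days did not overlap. It was also called lower in AFFN1 without day 14 library 3 (-1.25, 0.0447). H2-DMb1 was not called, at log2 fold changes of 0.69 in BN1, -0.43 in AFFN1 and 0.12 in control cells, nor were H2-DMa (0.27 and 0.57) and H2-DMb2 (1.78 and 1.59) in AFFN1 and control cells.

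The calls of Ciita, H2-Ab1 and H2-Aa in control and of Cd74 in BN1 held without any single library. Of the rest, H2-Oa in control was lost without day 6 library 2 or day 14 library 3 (edgeR adjusted p = 0.0544 and 0.0974), Cd74 in control without day 6 library 1 or 3 or day 14 library 1 or 3 (0.0765 to 0.123), H2-DMa in BN1 without library 3 of day 6 or of day 14 (0.0609 and 0.121), H2-DMb2 in BN1 without any library other than day 14 library 2 (0.0509 to 0.131), H2-Aa in BN1 without any library other than day 14 library 1 (0.0883 to 0.102), H2-Oa in AFFN1 without any day 6 library or day 14 library 3 (0.0534 to 0.217), H2-Aa in AFFN1 without day 6 library 1 or 3 or day 14 library 2 (0.0986 to 0.263), and Cd74 in AFFN1 without day 6 library 1 or 2 or day 14 library 1 or 3 (0.0633 to 0.135). Without library 3 of day 6 BN1 and control together, Cd74 in control (edgeR adjusted p = 0.14), H2-Aa (0.115), H2-DMa (0.0719) and H2-DMb2 (0.102) in BN1 and H2-Aa in AFFN1 (0.0504) were not called. Without library 1 of day 14 AFFN1 and control, Cd74 was not called in AFFN1 (edgeR adjusted p = 0.13) or control (0.111), and Ciita was called higher in BN1 (log2 fold change 2.11, 0.0101).

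Whether a fusion's effect changed between days was tested as a difference of the effects. Of the 9 tested members none was called in either line, where 2.97% of 12567 genes were called for BN1 and 1.46% for AFFN1. At an unadjusted p under 0.05 the members numbered 1 and 2. That threshold is looser, so these counts cannot be set against the shares. With the replicate block, by DESeq2 and without library 1 of day 14 AFFN1 and control, H2-Ab1 was called for BN1 (with the block edgeR adjusted p = 0.0342, where the blocked fit called 5.16% of genes, 1.97% lower), with a size that cannot be fixed because control cells had 0 reads on day 6. The change of the BN1 effect on Cd74 was 1.42 (SE 1.44) and on H2-DMa 0.75 (SE 0.59) on the log2 scale. Apart from H2-Ab1, the changes of the tested members lay between -3.02 (Ciita) and 1.42 for BN1 and between -4.44 (Ciita) and 0.19 (H2-DMb2) for AFFN1. H2-DMa passed on day 6 and Cd74 on day 14 with the block, which does not show that either effect differs between days.

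The order of the 6 groups differed between members. For Cd74 it was, from high to low, control, AFFN1 and BN1 on day 14, then control, AFFN1 and BN1 on day 6, and only the last step, from AFFN1 to BN1 on day 6, had no overlap of libraries. For H2-Oa the 3 day 14 groups came first, then BN1 and AFFN1 on day 6, and only day 6 control cells were apart from their neighbour. H2-Ob was highest in BN1 (178 ± 38.5 CPM) and AFFN1 cells of day 6 (153 ± 23.6 CPM; SD, n = 3), and AFFN1 of day 6 did not overlap BN1 of day 14, the next in order. For H2-DMa and H2-DMb2 the lowest group was BN1 on day 6, apart from its neighbour, and the other 5 groups ran into one another.

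Other genes of the pathway were read from lists, whose counts stand against the shares of all genes given above. Against control on day 6 these were 17.4% of tested genes in BN1 and 12.7% in AFFN1, in either direction. Of 13 regulators of class II genes, 2 rose and 1 fell in BN1 against control on day 6, with a median log2 fold change of -0.01 against -0.02 for all genes. Irf4, a transcription factor of activated B cells that also acts in precursors, rose 3.13-fold to 87.5 ± 20.6 CPM in BN1, against 27.7 ± 8.75 CPM in control (SD, n = 3; edgeR adjusted p = 0.00164), and 2.20-fold in AFFN1, to 61.3 ± 9.75 CPM (edgeR adjusted p = 0.0143). Rfx5, the DNA-binding subunit of the RFX complex, rose 1.28-fold in BN1 (edgeR adjusted p = 0.0401), and Nfyc, a subunit of NF-Y, fell 1.30-fold in BN1 and 1.19-fold in AFFN1 (edgeR adjusted p = 0.00568 and 0.0458). No regulator was called on day 14, with or without the block.

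Of 9 tested genes of class II processing and turnover, 2 rose and none fell in BN1 on day 6 (median log2 fold change 0.30). They were Ctsl, a cathepsin that degrades the invariant chain in thymic epithelium, 2.80-fold higher (edgeR adjusted p = 0.0421), and March8, a ubiquitin ligase that can remove class II from the surface, 1.41-fold higher (edgeR adjusted p = 0.0118). None was called in AFFN1 or on day 14. Of 4 tested costimulatory genes 1 rose and 1 fell in BN1 and 2 rose in AFFN1 on day 6. Only Cd86 reached the 5 CPM needed to be named, so the gene that fell in BN1 is not named. The median level of the list was 0.612 to 0.936 CPM in BN1, 3.01 to 4.07 in AFFN1 and 1.51 to 1.88 CPM in control libraries, lowest in BN1. Cd86, a ligand for T cells, rose 3.27-fold in BN1 (9.85 ± 3.22 CPM against 3.00 ± 0.541 CPM in control; edgeR adjusted p = 0.00137) and 4.45-fold in AFFN1 (13.4 ± 2.45 CPM; edgeR adjusted p = 0.000524). H2-Eb2, the other class II beta chain gene of the region in the table, rose in both lines on day 6, with 89 reads in BN1 and 119 in AFFN1 against 22 in control (log2 fold changes 1.95 and 2.40), and is named after its values were seen.

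Class I presentation shares inducers with class II. Of its 12 tested genes 1 rose and 2 fell in BN1 on day 6: Nlrc5, the class I relative of Ciita, rose 1.32-fold (edgeR adjusted p = 0.049), and the immunoproteasome subunit Psmb8 and the peptide-loading factor Pdia3 fell 1.40-fold and 1.33-fold (edgeR adjusted p = 0.00222 and 0.0247). In AFFN1 Tapbp rose 1.26-fold (edgeR adjusted p = 0.042). Interferon response genes went both ways on day 6, with 2 of 13 higher and 3 lower in BN1 and 4 higher and 3 lower in AFFN1. Of all 12068 tested genes, 1066 were called higher and 1029 lower in BN1, and 940 higher and 588 lower in AFFN1. Usp18 and Ifit1, induced by type I interferon, rose 1.85-fold and 1.86-fold in BN1, whereas Gbp3 and Gbp2, guanylate-binding proteins induced by interferon gamma, fell 2.05-fold and 1.74-fold. In AFFN1 Usp18 and Ifit1 rose 1.78-fold and 1.72-fold and Iigp1 and Gbp7 fell 3.35-fold and 1.55-fold. On day 14 the blocked fit called Gbp3 lower in BN1 (2.35-fold, edgeR adjusted p = 0.00853), also without the libraries numbered 1 (log2 fold change -1.06, 0.00257), whereas the fit without the block did not (0.194).

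The cell type label says no more than CD45.2-positive, and markers were read from the counts. Ptprc, which encodes CD45, had 185 to 408 CPM in every library. The summed level of 8 B-lineage markers was 5293 to 11960 CPM, among them the pre-B-cell receptor genes Vpreb1 and Igll1. The mature B-cell list was mixed: Ms4a1, Cr2 and Fcer2a reached at most 1.02 CPM, while Cd22 had 13.2 to 107, Ighd 13.2 to 59.2, Cd37 304 to 660, Cxcr5 1.12 to 232 and Ighm 1378 to 5864 CPM. Of the 10 dendritic cell markers, 7 (Itgax, Zbtb46, Xcr1, Clec9a, Cd209a, Batf3 and Siglech) were at 1.06 CPM or lower in every library, and Cd209a was at 0. The other 3, Ccr7, Bst2 and Ccr9, had 4.36 to 304 CPM. Of 10 monocyte or macrophage markers, C1qa, C1qb and Mertk were at 0.851 CPM or lower, Fcgr1, Cd14, Adgre1 and Csf1r reached 6.51 CPM at most, and Itgam (1.81 to 18.2), Lyz2 (14.5 to 133) and Ly6c2 (1.22 to 241 CPM) were higher. Of the T-cell markers Cd3e, Cd3d, Cd3g, Cd4 and Cd8a reached 0.341 CPM at most and Trac 17.6 CPM, at 3.74 to 4.59 CPM in BN1, 1.24 to 1.48 in AFFN1 and 0.448 to 1.45 in control libraries on day 6. The summed stromal list was 12.7 to 76.7 CPM in BN1, 36.4 to 140 in AFFN1 and 26.6 to 89.4 in control libraries on day 6. On day 14 it was 20.7 to 42.2, 32.4 to 39.5 and 24.3 to 43.3 CPM. Whether other cells added to the class II traces was not tested.

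A few genes of those marker lists moved with the groups. The summed dendritic list was 350 to 396 CPM in BN1 and 397 to 523 in AFFN1 on day 6, against 156 to 211 CPM in control libraries, carried by Ccr9 (median 278, 289 and 34.3 CPM). The summed monocyte or macrophage list was 211 to 243 CPM in BN1 and 240 to 334 in AFFN1, against 64.2 to 162 CPM in control, carried by Ly6c2 (median 161, 236 and 6.61 CPM). The mature B-cell list did not move as one on day 6. Ms4a1, Cr2 and Fcer2a reached at most 1.02 CPM in any library, while Cd22 had medians of 47.2, 107 and 19.2 CPM in BN1, AFFN1 and control cells. The list sums were 2610 to 2962, 2075 to 2243 and 1718 to 2128 CPM, so AFFN1, highest in Cd22, overlapped control in the sum. On day 14 the sums, most of which is Ighm, were 4878 to 6663, 4652 to 6253 and 4480 to 6690 CPM. Cxcr5, a chemokine receptor of mature B cells, stood in the order of Cd74 on day 14, at 24.8 to 77.4 CPM in BN1, 58.7 to 183 in AFFN1 and 116 to 232 in control libraries, and BN1 did not overlap control. On day 6 Cxcr5 was higher in BN1 (12.3 to 13.0 CPM) than in AFFN1 (1.12 to 2.85) and control libraries (1.23 to 3.21 CPM), where Cd74 was lowest in BN1. The part of these genes in the class II differences was not tested. The summed immediate early and stress list was 1807 CPM in BN1 library 3 and 807 in control library 3 on day 6, against 361 to 446 CPM in the other day 6 libraries. Without both libraries the 4 calls in BN1 held, and H2-Ob (log2 fold change 1.52, edgeR adjusted p = 0.00995) and H2-DMb1 (-1.41, 0.0479) were called too.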

How the data were processed

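RNA of 18 libraries was prepared from sorted cells with a stranded poly(A) kit, per the labels' protocols. The authors deposited expected counts per gene, made with STAR and RSEM on mm10 (DESeq2 is also listed), per the submitters' processing notes. Tool versions, gene annotation and strand setting were not given in the sources used here. Expected counts, of which 1.74% to 2.12% per library were fractional, were rounded. Genes were filtered with filterByExpr and scaled by TMM, and edgeR 4.0.16 (R 4.3.3) was used for the quasi-likelihood test with robust estimation, two-sided, with Benjamini-Hochberg adjustment over all tested genes. The filter asks for enough reads in as many libraries as a group holds. A gene can therefore pass only through the groups where it is high. Calls needed an adjusted p under 0.05. In all, 11 comparisons were made, on the 9 libraries of a day where both groups share it and otherwise on all 18. Alternatives were other scaling, no filter, DESeq2 1.42.0, a replicate block, other sets of libraries and summed H2-M beta chains.

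On day 14 deviations from the group mean correlated at 0.291 to 0.614 between libraries of the same replicate number (9 pairs) and at -0.503 to 0.0142 between others (18 pairs). Deviations cancel within a group, so the low values of the others are not separate evidence of pairing. The descriptions share a code per number. The numbers were therefore used as pairs there in a second, blocked fit, while no main fit, on day 14 or between days, used them. On day 6 same-numbered libraries correlated at -0.321 to 0.351 and were not taken as pairs. A level per length is CPM per 1000 bases of the longest principal transcript in GENCODE M21, and counting intervals (95%) and the limit for 0 reads cover counting error only. A fold against a group with 0 reads sets that group at 3 reads. It leaves out the error of the other count, so a full lower bound would be lower. Members and lists were chosen with earlier results of these data known. By the rule for named genes, all 10 members were taken in each comparison, and for BN1 against AFFN1 on day 14 and the change of an effect most are given as a range. From each list, the called genes with the largest change in a fusion against control are named, up to 2 per direction, with at least 5 CPM in the higher group.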

Additional observations from a re-analysis of the deposited data

Results flagged for a closer look

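The BN1 effect on H2-Ab1 differed between days when the replicate number was a block: the change of the log2 fold change, day 14 minus day 6, was -6.32 (SE 1.53, edgeR adjusted p = 0.0342), and without the block -6.27 (SE 2.03, adjusted p = 0.144). On day 14 the BN1 libraries had 58 reads and the control libraries 23, and on day 6 the BN1 libraries had 75 and the control libraries 0. The fitted value depends on the prior count because day 6 control cells had no read, and is no bound. In reads, BN1 over control was 2.48 on day 14 (counting interval 1.50 to 4.21) and 24.4 on day 6 with control set at 3 reads. For this change the numbers were blocked within each day. The day 6 replicate numbers did not pair the libraries, so the blocked fit is a check and not the better estimate there.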

How the results depend on the processing

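Of 1536 values of a member under another setting, 1421 kept direction and side of the threshold, 71 were no longer called, 44 became called and 0 changed direction as a call. Counts of called members that moved by over 1.5 times were, with all 18 libraries in the fit on day 6, 1 for BN1 against control (4 otherwise) and 0 for AFFN1 against control (2). For BN1 against AFFN1 on day 6 (1 otherwise) they were 4 with DESeq2, 2 with the replicate block, 3 without the libraries numbered 3 of control and BN1, and 2 with summed H2-M beta chains. For BN1 against control on day 14 (0 otherwise) they were 2 with the block, and 2 with the block and summed beta chains, a setting chosen after seeing the data. Between days, the 6 libraries of a group alone gave 1 in control (5 otherwise) and 0 in AFFN1 (3), and BN1 (4) had 2 without the filter and 1 without the numbered 3 libraries of day 6. In the fits of 6 libraries, H2-Aa, H2-Ab1 and Ciita in control and H2-Aa in AFFN1 had too few reads to be tested. Cd74 in control (edgeR adjusted p = 0.0977) and H2-Oa (0.0572) and Cd74 (0.084) in AFFN1 were tested there and not called. The change of the BN1 effect (0) had 1, H2-Ab1, with DESeq2, with the block and without the day 14 libraries numbered 1 of control and AFFN1. Apart from members left untested in the fits of 6 libraries, the cause of these moves was not tested. On day 6, where the numbers do not pair libraries, the block ended the call of H2-DMb2 in BN1 against control (adjusted p = 0.0651) and called H2-Ab1 in BN1 against AFFN1 (0.0466). Between days the block tied libraries of the same number across the days, a link that the labels do not give, so it is only a check there. It ended the calls of Cd74 in control (0.115) and AFFN1 (0.0584) and called H2-Oa in BN1 (0.0488) and H2-DMb2 in AFFN1 (0.046). Of the list genes named on day 6, it ended the calls of Rfx5 (0.0707), Nlrc5 (0.054) and Pdia3 (0.0538) in BN1 and of Nfyc (0.0834), Tapbp (0.0726) and Ifit1 (0.0619) in AFFN1, and leaving out the day 6 BN1 and control libraries numbered 3 ended that of Nfyc in AFFN1 (0.0512).

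Leaving out 1 library, or all of 1 number with the block, gave 0 to 7 called members for BN1 against control on day 6, 0 to 5 for AFFN1 against control and 0 to 3 for BN1 against AFFN1. On day 14 the ranges were 0 to 2, 0 to 0 and 0 to 0. Between days they were 1 to 3 in BN1, 0 to 3 in AFFN1 and 3 to 7 in control, and 0 to 0 for the change of either effect. Over all genes, calls on day 14 depended most on the setting. BN1 against control had 3 without the block, 1349 with it, 691 with all 18 libraries, 642 with DESeq2, 29 without the libraries numbered 1, 17 without the filter and 5 with the other scaling. AFFN1 against control had 5, and then 65, 51, 83, 8 and 25 in the same order up to the filter, and BN1 against AFFN1 had 0, and then 21, 76, 90, 0 and 5. On day 6 the fit of all 18 gave 1033, 676 and 625 calls, against 2095, 1528 and 1349, and leaving out the libraries numbered 3 of control and BN1 gave 2353 for AFFN1 against control. Leaving out 1 library gave 1141 to 3495, 739 to 2250 and 725 to 1047 calls, and 1 number with the block 251 to 4414, 146 to 4404 and 170 to 2230, so the shares of all genes printed for day 6 are themselves uncertain. On day 14 these ranges were 1 to 5, 0 to 9 and 0 to 0 without 1 library, and 143 to 685, 1 to 263 and 0 to 124 without 1 number with the block. The change of the BN1 effect had 373 calls, 649 with the block, 599 with DESeq2 and 224 without the numbered 3 libraries, and that of the AFFN1 effect 183, 319, 339 and 125. Depth limits H2-Aa, H2-Eb1 and Ciita most, since a change of a few reads moves their ratios.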

Other observations

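For Cd74, the 5 genes whose pattern was most like it over the 18 libraries, after the mean of each day was taken out, were Mc1r (r = 0.967), Lta (0.959), Tubb3 (0.954), 2410004B18Rik (0.931) and Tcrg-C2 (0.926), among 9576 genes with a mean of at least 5 CPM. With the day means left in, r was -0.347 for 2410004B18Rik and 0.766 to 0.968 for the others, so the likeness of 2410004B18Rik holds only within days. For Ciita they were Banp (0.879), Thap11 (0.879), Zfp821 (0.871), Dbp (0.849) and Msl1 (0.845), on far fewer reads. These are correlations of log2 CPM over libraries that share groups, days and replicate numbers, given as a description.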
